A study of Xenopus laevis with 6 samples.

Results

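The genes described here are the chemokines, cytokines and their receptors of Xenopus laevis, chosen by gene symbol alone. A row of the gene count table was included if its symbol began as an interleukin, a chemokine or chemokine receptor (cxcl, cxcr, ccl, ccr, ackr), a colony-stimulating factor, a tumour necrosis factor family gene (tnf, lta), lif, lifr or osmr, and interleukin-17 genes were left out. This rule returned 117 of the 42638 genes in the table. They carry 75 different symbols, since this allotetraploid frog often keeps a gene as a pair of homeologs, with the endings L and S for the long and short subgenome. By role there were 46 ligand genes, 60 receptor genes and 11 others, mostly proteins named for their induction by tumour necrosis factor.

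The study compared 3 libraries of basal Xenobots with 3 libraries of whole Xenopus embryos of the same age, all wild type and with no treatment. A basal Xenobot is a motile, self-assembled construct that forms, without sculpting or added material, from ectoderm (the animal cap) cut from a stage 9 embryo. Each Xenobot library came from 50 pooled Xenobots on day 7, kept at 14 °C in 0.75X MMR, a Ringer's salt solution, and each embryo library from 10 pooled sibling embryos at stage 35, kept at 14 °C in 0.1X MMR. Tissue makeup, surgery and salt concentration therefore changed together between the groups and cannot be told apart, and the replicate is the pool (n = 3 per group).

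Chemokines are small secreted proteins that direct cell migration by acting on receptors coupled to G proteins, while interleukins, colony-stimulating factors and tumour necrosis factors signal through receptor chains at the cell surface that act mostly through JAK-STAT or NF-kB. A receptor often needs more than its binding chain: the interleukin-1 receptor requires an accessory protein, and the receptors of the interleukin-6 and leukemia inhibitory factor group share the signalling chain gp130, encoded by il6st. Epithelia are a known source of several of these ligands, and many, though not all, of the receptors are carried by leukocytes. In vertebrate embryos, cxcl12 and its receptors also guide migrating cells that are not leukocytes.

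Library totals were 13597538 to 20325075 estimated counts in the Xenobot pools and 17533207 to 22225123 in the embryo pools. A single count was worth 0.0465 to 0.0839 CPM (counts per 1000000, scaled with TMM factors), so several members were near the limit of detection. The counting intervals given below cover counting error only and leave out the spread between pools. The Xenobot pools were checked with cell type markers. The summed level of 18 epidermal marker copies was 10960 to 12772 CPM in Xenobots, against 1525 to 2236 CPM in embryos. Summed erythroid (9 copies), neural (9) and liver (5) markers were below 1 CPM in every Xenobot pool. Muscle markers were at 111, 238 and 21.9 CPM in Xenobot pools 1, 2 and 3 and at 5174 to 8331 CPM in embryos, so that Xenobot pool 2 held the most RNA of that kind and pool 3 the least. In whole-tissue RNA, fewer cells of a type and less RNA per cell cannot be told apart.

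Of the 117 members, 70 passed the expression filter (more than 0.6 CPM in at least 3 libraries) and were tested: 24 ligands, 37 receptors and 9 others. Of the other 47, 6 had no count in any library. A gene was taken to have risen or fallen at a Benjamini-Hochberg adjusted p under 0.05 in limma, adjusted over all 26752 tested genes. With that criterion 36 members rose and 18 fell, against 29.6% and 36.2% of all tested genes. When the change also had to exceed 2 on the log2 scale, 18 members were higher and 15 lower in Xenobots, against a background of 5.75% and 20.5%. The median log2 fold change of the 70 was 0.65, and that of all tested genes was -0.07. The Xenobot and embryo values did not overlap for 57 of the 70 tested members, against 71.7% of all tested genes. The Xenobot values were the higher ones for 38 of these members and the lower ones for 19, against 32.8% and 38.9% of all tested genes.

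Among the 24 tested ligands, 12 were higher and 4 lower past both thresholds, with a median log2 fold change of 1.93. Among the 37 tested receptors, 5 were higher and 10 lower, with a median of 0.35. Of all tested genes 5.75% were higher and 20.5% lower in this way, so that the shares of ligands and receptors that were lower are near the background. These summaries depend in part on the filter, because a member that passed it only through the libraries of one group had to differ. Such members were 7 ligands (csf3.S, cxcl8.S, ccl4.L and both copies of il1b and lif) and 1 receptor (il13ra2.S) over the minimum in Xenobots only, and 5 receptors (cxcr4.L, cxcr1.S, il1r2.L, il18rap.L and il1rapl1.S) and tnfaip8l3.L over it in embryos only. Of the members over the minimum in libraries of both groups, 5 of 17 ligands were higher and 4 lower (median 0.53), and 5 of 31 receptors were higher and 5 lower (median 0.97). In these the median of the ligands was thus below that of the receptors. The difference between the roles was not tested.

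**Figure D1:**
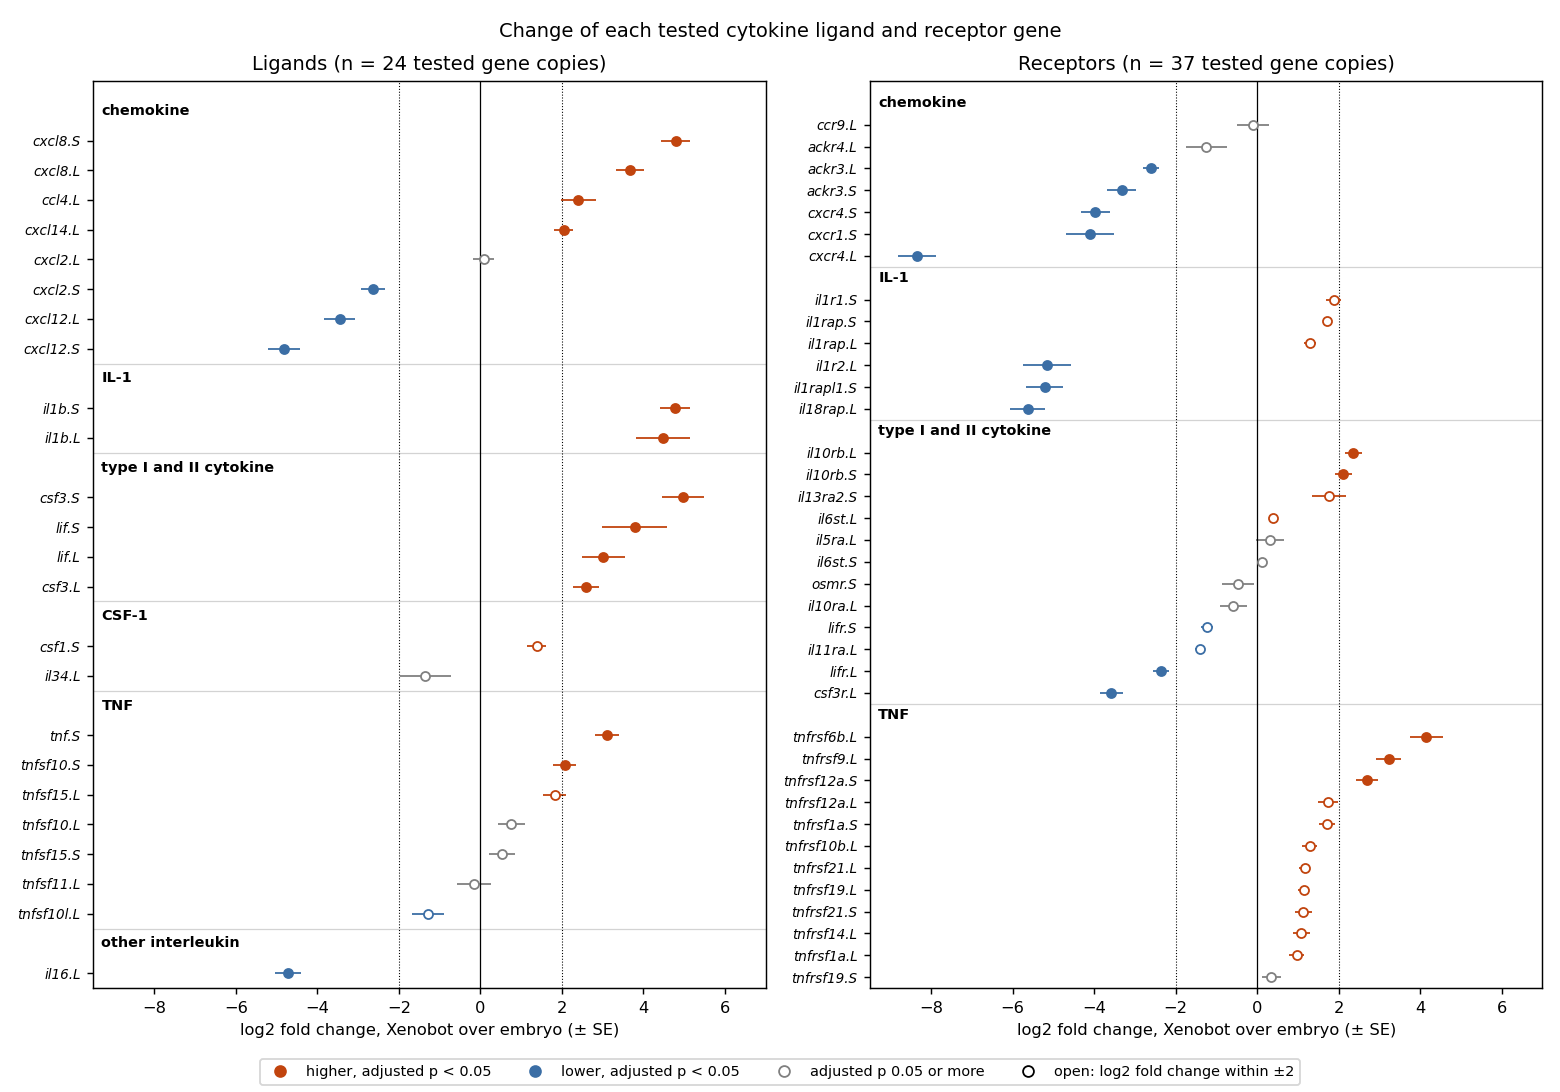
Log2 fold change (Xenobot over embryo, ± SE, n = 3 pools per group) of the 24 tested ligand genes (left) and the 37 tested receptor genes (right), ordered within each protein family; dotted lines mark ±2. The 12 ligands past both thresholds in the upward direction include all 6 copies of csf3, il1b and lif. All of these but csf3.L passed the filter through Xenobot libraries only and had to differ. The receptors of the TNF family lie to the right of 0, and no chemokine receptor rose. Of all tested genes 5.75% were higher past both thresholds, and 29.6% rose.

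Among the ligands, csf3.S, cxcl8.S, il1b.S and il1b.L had the largest fitted increases, and all of these passed the filter through Xenobot libraries only. The gene csf3 encodes granulocyte colony-stimulating factor, which in mammals drives the production of neutrophils. Its copy csf3.S (NCBI assembly version 10.1, chromosome 9_10S, 1789550 to 1793697) stood at 1.99, 1.97 and 1.59 CPM in Xenobot pools 1, 2 and 3, against 0.0935, 0 and 0.0465 CPM in embryo pools 1, 2 and 3. The embryo values rest on 3 counts in all, and the ratio of the groups was 38.6 with a 95% counting interval of 12.8 to 190. The limma adjusted p was 1.61e-05. The homeolog csf3.L (chromosome 9_10L, 2025177 to 2031065) was at 2.96, 2.54 and 3.11 CPM in Xenobots and 0.561, 0.379 and 0.419 CPM in embryos (log2 fold change 2.58 with SE 0.32, adjusted p = 5.82e-05 in limma). Both copies were higher in every Xenobot pool than in any embryo pool.

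The chemokine cxcl8, which attracts neutrophils in mammals, rose in both copies. For cxcl8.S (chromosome 1S, 69230214 to 69234168) the values were 9.14, 9.02 and 7.72 CPM in Xenobots and 0.234, 0.216 and 0.465 CPM in embryos (log2 fold change 4.79 with SE 0.35, adjusted p = 2.33e-06 in limma). For cxcl8.L (chromosome 1L, 85337131 to 85340326) they were 11.1, 12.2 and 7.56 CPM in Xenobots and 0.888, 0.703 and 0.791 CPM in embryos (log2 fold change 3.67 with SE 0.35, adjusted p = 1.09e-05 in limma). The groups did not overlap, and the lowest Xenobot value of either copy was several times the highest embryo value. The neighbouring gene cxcl2, another chemokine of the CXC class, behaved otherwise. On chromosome 1S, cxcl2.S (69184485 to 69199113) lies next to cxcl8.S in this list and stood at 0.825, 0.658 and 0.588 CPM in Xenobots against 4.96, 3.95 and 4.33 CPM in embryos, a fall of 2.63 on the log2 scale (SE 0.30, limma adjusted p = 3.12e-05). Its homeolog cxcl2.L showed overlapping groups, at 3.34 to 4.40 CPM in Xenobots and 2.49 to 4.42 CPM in embryos (log2 fold change 0.08, limma adjusted p = 0.797).

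Interleukin-1 beta, an early cytokine of tissue injury encoded by il1b, was close to the detection limit in embryos. For il1b.S (chromosome 3S, 27349451 to 27355053) the level was 6.53, 5.54 and 7.30 CPM in Xenobots, against 0.187, 0.162 and 0.279 CPM in embryos (log2 fold change 4.77 with SE 0.38, adjusted p = 3.34e-06 in limma). For il1b.L (chromosome 3L) it was 2.27, 1.22 and 1.68 CPM in Xenobots, against 0.187, 0.0541 and 0 CPM in embryos (log2 fold change 4.48 with SE 0.67, adjusted p = 0.00021 in limma). Few embryo counts lie behind the fold of il1b.L, which was 3.63 on the log2 scale without embryo pool 3 and 5.24 without embryo pool 1. Tumour necrosis factor, tnf, which acts on many cell types through NF-kB, also rose. The copy tnf.S (chromosome 8S, 81721966 to 81724837) was at 9.62, 8.13 and 11.8 CPM in Xenobots and 1.26, 0.974 and 1.02 CPM in embryos (log2 fold change 3.10 with SE 0.29, adjusted p = 8.91e-06 in limma). The copy tnf.L did not pass the filter, with 7, 10 and 7 counts in Xenobots and 3, 0 and 3 in embryos. The lymphotoxin gene lta.S, a relative of tnf, lies next to tnf.S in this list. It had 0, 0 and 1 counts in Xenobots and 5, 4 and 0 in embryos, too few to test.

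Leukemia inhibitory factor, lif, a ligand of the interleukin-6 group, rose in both copies. Both passed the filter through Xenobot libraries only and had to differ. The values of lif.S were 1.24, 2.02 and 0.756 CPM in Xenobots and 0.281, 0.108 and 0 CPM in embryos (log2 fold change 3.79 with SE 0.79, adjusted p = 0.00187 in limma). Those of lif.L were 1.03, 1.50 and 0.756 CPM in Xenobots and 0.0468, 0.162 and 0.186 CPM in embryos (log2 fold change 3.02 with SE 0.54, adjusted p = 0.000681 in limma). In both copies Xenobot pool 2 was highest and pool 3 lowest. The log2 fold change of lif.S was 2.74 without embryo pool 3, which had 0 counts, and 4.61 without embryo pool 1. Other ligands of that receptor group were not expressed at a measurable level: il6.L had 0 counts in every Xenobot pool and 3 in a single embryo pool, and il11.S had 0 counts in all 6 libraries. A count of 0 allows up to 3 counts in a library.

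The other ligands past the upward thresholds were cxcl14.L, ccl4.L and tnfsf10.S. The chemokine cxcl14, which in mammals is made by skin epithelium, had among the highest CPM of the ligands, not corrected for transcript length. The level of cxcl14.L was 110, 68.5 and 152 CPM in Xenobots, against 25.5, 24.7 and 26.0 CPM in embryos (log2 fold change 2.04 with SE 0.24, adjusted p = 4.17e-05 in limma). The chemokine gene ccl4.L was at 1.51, 2.25 and 2.01 CPM in Xenobots and 0.468, 0.487 and 0.186 CPM in embryos (log2 fold change 2.40, limma adjusted p = 0.000628). The death-inducing TNF family ligand tnfsf10.S was at 3.09, 3.19 and 4.03 CPM in Xenobots and 0.795, 0.866 and 0.698 CPM in embryos (log2 fold change 2.07, limma adjusted p = 0.000113). Its homeolog tnfsf10.L did not pass the test, with 1.24 to 1.55 CPM in Xenobots and 0.698 to 1.12 CPM in embryos (log2 fold change 0.76, limma adjusted p = 0.0658). The increases of cxcl14.L, ccl4.L and tnfsf10.S lay near the fold threshold. Of these copies, ccl4.L passed the filter through Xenobot libraries only and had to differ. Leaving out Xenobot pool 3 gave log2 fold changes of 1.77 for cxcl14.L and 1.98 for tnfsf10.S, and leaving out embryo pool 3 gave 1.97 for ccl4.L and 1.99 for tnfsf10.S.

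Smaller increases were seen for csf1.S and tnfsf15.L. The gene csf1 encodes the macrophage colony-stimulating factor, and csf1.S averaged 7.99 ± 1.21 CPM in Xenobots and 3.10 ± 0.937 CPM in embryos (SD, n = 3 each; log2 fold change 1.38, limma adjusted p = 0.000501). The other ligand of its receptor, a gene not analysed here, is il34, and il34.L was at 0.275, 0.939 and 0.0839 CPM in Xenobots and 0.706, 1.08 and 0.997 CPM in embryos (log2 fold change -1.35, limma adjusted p = 0.0814). Without Xenobot pool 2, in which it was highest, the log2 fold change of il34.L was -2.22 (limma adjusted p = 0.00655). Its homeolog il34.S did not pass the filter, at 0.481 to 0.517 CPM in Xenobots and 0.595 to 1.21 CPM in embryos. The TNF family ligand tnfsf15.L was at 4.26, 3.34 and 4.53 CPM in Xenobots and 1.03, 1.30 and 0.977 CPM in embryos (log2 fold change 1.82, limma adjusted p = 0.000221). Its homeolog tnfsf15.S had overlapping groups (log2 fold change 0.53, limma adjusted p = 0.179).

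**Figure D2:**
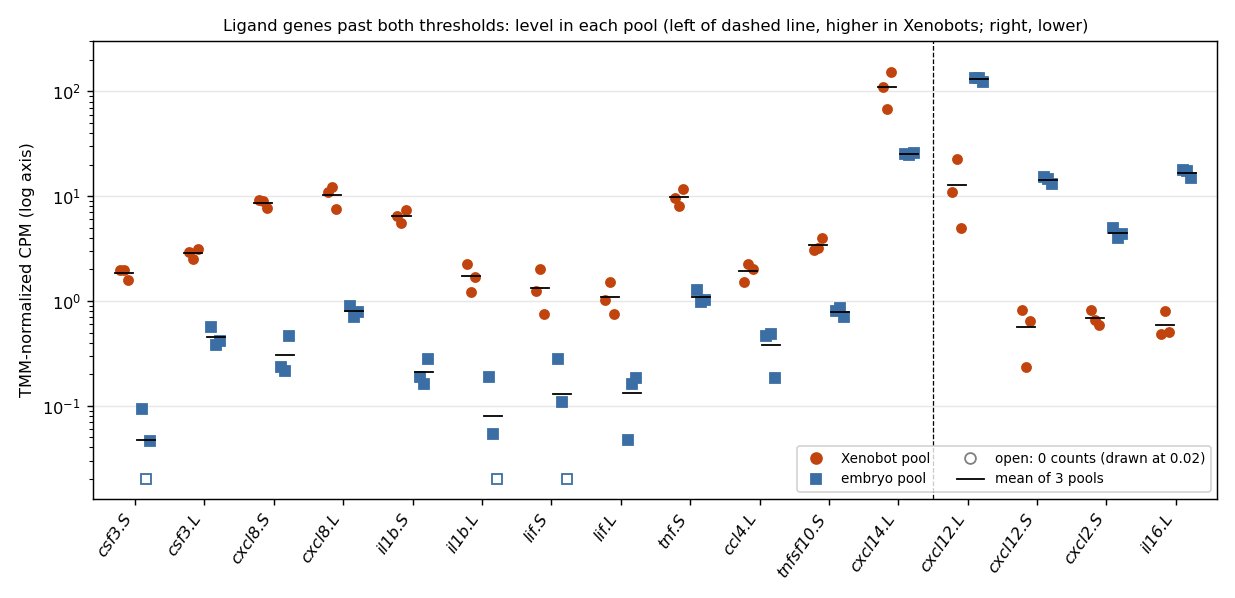
Level (TMM-normalized CPM, log axis) in each Xenobot pool (circles) and embryo pool (squares) of the 16 ligand genes past both thresholds; bars are means of 3 pools and open symbols mark 0 counts. The 12 genes left of the dashed line are higher in every Xenobot pool, and the 4 right of it lower. Of all tested genes 32.8% are separated upward in this way and 38.9% downward. The genes shown were chosen by thresholds on these same values. Of them, csf3.S, cxcl8.S, ccl4.L and both copies of il1b and lif passed the filter through Xenobot libraries only and had to differ. The level of csf3.S is 1.59 to 1.99 CPM in Xenobots and at most 0.0935 CPM in embryos.

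The ligands that fell included the main guidance chemokine. The gene cxcl12 encodes the ligand of cxcr4 and ackr3 and is known for guiding migrating cells of the embryo, among them neural crest and blood progenitors. Its copy cxcl12.L (chromosome 7L, 65757992 to 65804625) was at 11.0, 22.6 and 4.95 CPM in Xenobots, against 134, 134 and 124 CPM in embryos (log2 fold change -3.46 with SE 0.37, adjusted p = 2.28e-05 in limma). The copy cxcl12.S was at 0.825, 0.235 and 0.645 CPM in Xenobots, against 15.3, 14.5 and 13.1 CPM in embryos (log2 fold change -4.82 with SE 0.40, adjusted p = 4.38e-06 in limma). The Xenobot values of cxcl12.L followed the same order of pools as the muscle markers given above and as endothelial markers, whose summed level over 12 copies was 36.4, 41.6 and 10.8 CPM in Xenobot pools 1, 2 and 3 and 91.2 to 101 CPM in embryos. Their part in the result was not tested. Those of cxcl12.S did not, since it was lowest in pool 2. Without Xenobot pool 2 the log2 fold changes were -4.09 for cxcl12.L and -4.21 for cxcl12.S.

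The gene il16, in mammals the precursor of an attractant of CD4-bearing cells, was also lower. Its copy il16.L stood at 0.481, 0.799 and 0.504 CPM in Xenobots, against 17.7, 17.3 and 14.8 CPM in embryos (log2 fold change -4.72 with SE 0.32, adjusted p = 1.49e-06 in limma). The TNF family ligand tnfsf10l.L also fell, with 0.962, 3.95 and 1.85 CPM in Xenobots and 4.82, 5.79 and 5.07 CPM in embryos (log2 fold change -1.28, limma adjusted p = 0.0138). Its log2 fold change was -0.80 without Xenobot pool 1 (limma adjusted p = 0.0575) and -1.95 without Xenobot pool 2. Ligands of lymphocyte responses were at or near 0 in both groups: il10.L, il10.S, il12b.S, il21.S, cxcl9.S, cxcl10.L, cxcl10.S and cxcl11.S had at most 3 counts in any library, and ccl5.L and ccl5.S had 0 counts in every Xenobot pool and 3 to 10 in the embryo pools.

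Receptors divided by family. Of the 7 tested chemokine receptors, 5 were lower past both thresholds, against 20.5% of all tested genes, and 0 higher, against 5.75%. Of the 5, cxcr4.L and cxcr1.S passed the filter through embryo libraries only. The log2 fold changes of the other two, ccr9.L and ackr4.L, were -0.10 and -1.25 (limma adjusted p = 0.842 and 0.0513). The chemokine receptor cxcr4, through which cxcl12 acts, was nearly absent from Xenobots in its L copy. For cxcr4.L (chromosome 9_10L, 63711637 to 63715059) the level was 0, 0.0939 and 0 CPM in Xenobots, from 2 counts in all, against 18.8, 19.4 and 16.3 CPM in embryos. The ratio of embryos to Xenobots was 432 with a 95% counting interval of 119 to 3573 (limma adjusted p = 6.73e-07). The copy cxcr4.S was at 0.481, 0.799 and 0.420 CPM in Xenobots, against 9.21, 10.9 and 8.23 CPM in embryos (log2 fold change -3.97 with SE 0.35, adjusted p = 6.53e-06 in limma). The scavenging receptor of the same ligand, ackr3, fell by 2.60 (ackr3.L) and 3.32 (ackr3.S) on the log2 scale, with 1.93 to 2.82 and 0.504 to 1.50 CPM in Xenobots against 14.6 to 16.8 and 7.88 to 8.76 CPM in embryos. The ligand cxcl12 and both of its receptors were thus all lower past both thresholds, in 6 of 6 gene copies, against 20.5% of all tested genes. Of these copies, cxcr4.L had to differ because of the filter.

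The receptor cxcr1, which binds cxcl8 in mammals, went the opposite way to that ligand. The gene cxcr2, whose product also binds cxcl8 in mammals, was not analysed here. The values of cxcr1.S were 0.0687, 0 and 0.0839 CPM in Xenobots, from 2 counts in all, and 0.888, 1.19 and 1.35 CPM in embryos. The ratio of embryos to Xenobots was 27.2 (95% counting interval 7.26 to 229, limma adjusted p = 0.000162). The fitted log2 fold change of -4.09 was -3.33 without Xenobot pool 2, in which the count was 0. Its homeolog cxcr1.L, which did not pass the filter, had 2, 0 and 3 counts in Xenobots and 14, 5 and 14 in embryos. The granulocyte colony-stimulating factor receptor csf3r.L (chromosome 2L, 57163505 to 57198954) showed the same arrangement, at 0.619, 0.799 and 0.504 CPM in Xenobots, against 7.39, 8.60 and 8.28 CPM in embryos (log2 fold change -3.58 with SE 0.29, adjusted p = 4.29e-06 in limma). Thus cxcl8 and csf3 were higher, and cxcr1.S and csf3r.L lower, in every Xenobot pool than in any embryo pool. Of all tested genes, 32.8% were separated upward in this way and 38.9% downward. The copies cxcl8.S and csf3.S passed the filter through Xenobot libraries only, and cxcr1.S through embryo libraries only. Such copies had to differ.

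Most leukocyte markers were lower as well. Of 30 listed copies of leukocyte genes, 21 were tested. Of these 19 fell and 1 rose, against 36.2% and 29.6% of all tested genes, with a median log2 fold change of -4.41. Their summed level was 18.1 to 21.4 CPM in Xenobots and 185 to 214 CPM in embryos, and alox5.L alone, which rose, gave 11.1 CPM of the Xenobot mean. In Xenobots 18 of the 30 copies had at most 3 counts in every pool, and 5 had 0 counts in all of them. The defining markers ptprc.L, encoding the common leukocyte antigen CD45, and lcp1.L had 0 counts in all 3 Xenobot pools, against means of 3.83 and 8.01 CPM in embryos, and the myeloid regulator spi1.L had 2 counts in all Xenobot pools together. The neutrophil enzyme gene mpo.L averaged 0.0996 CPM in Xenobots and 102 CPM in embryos. The part of leukocyte number in the lower receptor levels was not tested, and the increases of csf3, cxcl8, il1b and tnf were measured in pools where ptprc.L, lcp1.L and spi1.L were at or near 0.

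**Figure D3:**
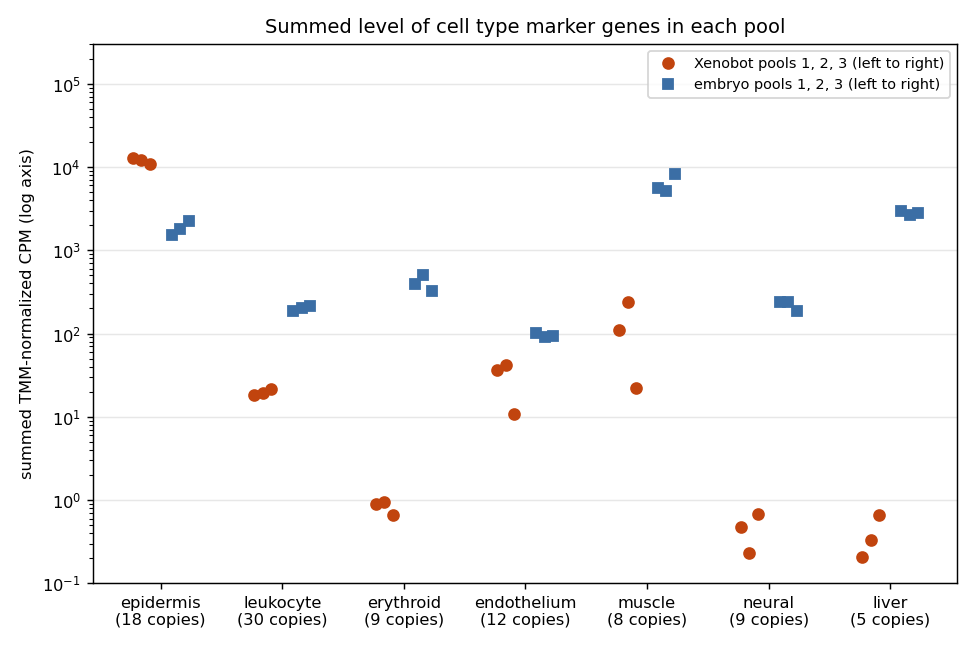
Summed TMM-normalized CPM (log axis) of cell type marker genes in each Xenobot pool (circles, left of each pair) and each embryo pool (squares); the number of gene copies summed stands below each name. Leukocyte markers sum to 18.1 to 21.4 CPM in Xenobots and 185 to 214 CPM in embryos, while epidermal markers are higher in Xenobots.

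The interleukin-1 receptor family was split: the signalling chains of the interleukin-1 receptor itself rose, and the other tested members fell. The signalling receptor il1r1.S (chromosome 2S, 101863551 to 101882310) was at 11.0, 11.5 and 9.23 CPM in Xenobots, against 3.13, 3.25 and 2.42 CPM in embryos (log2 fold change 1.87 with SE 0.19, adjusted p = 1.42e-05 in limma). Its accessory protein il1rap rose in both copies. For il1rap.S the level was 49.3, 49.8 and 54.9 CPM in Xenobots and 15.2, 16.0 and 15.8 CPM in embryos (log2 fold change 1.71 with SE 0.10, adjusted p = 8.06e-07 in limma), and the log2 fold change of il1rap.L was 1.30. The ligand il1b and the chains needed for its signal were thus all higher in Xenobots. The groups did not overlap in any of the 5 tested copies, where 32.8% of all tested genes were separated in that direction. Both copies of il1b passed the filter through Xenobot libraries only and had to differ. Only il1r1.S and the copies of il1rap were free to overlap.

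The decoy receptor il1r2, which in mammals binds interleukin-1 without signalling, was almost absent. For il1r2.L the level was 0, 0 and 0.0839 CPM in Xenobots, from 1 count, against 1.78, 1.19 and 2.00 CPM in embryos (ratio of embryos to Xenobots 80.1, 95% counting interval 14.1 to 3196, limma adjusted p = 3.03e-05). The fitted log2 fold change of -5.16 was -5.87 without Xenobot pool 3, which held the single count. The accessory chain of the interleukin-18 receptor, il18rap.L, had 0 counts in every Xenobot pool and 1.36, 1.95 and 1.53 CPM in embryos, at least 25.4-fold lower with a floor of 3 counts over the group (limma adjusted p = 2.86e-06). Its partner il18r1.1.L was too low to test, with 0 counts in every Xenobot pool and 9, 2 and 4 in embryos. These 3 genes follow each other in this list on chromosome 2L, il1r2.L at 115090840 to 115102012, il18r1.1.L at 115142976 to 115171606 and il18rap.L at 115208896 to 115240552. The neuronal family member il1rapl1.S, which in mammals acts at synapses, also had 0 counts in Xenobots and 1.45, 1.25 and 0.904 CPM in embryos, at least 19.2-fold lower (limma adjusted p = 5.93e-06). Neural markers stood at 0.235 to 0.682 CPM in sum in Xenobots and 188 to 242 CPM in embryos. Their part in the result for il1rapl1.S was not tested. The copies il1r2.L, il18rap.L and il1rapl1.S all passed the filter through embryo libraries only and had to differ.

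Most tested receptors of the TNF family rose. Of 12 tested copies 11 rose, against 29.6% of all tested genes, and 0 fell, against 36.2%. The fold threshold was also passed by 3 of them, against 5.75% of all tested genes, and the median log2 fold change was 1.22. The largest change was in tnfrsf6b, in mammals a soluble decoy that captures death-inducing ligands. Its copy tnfrsf6b.L (chromosome 9_10L, 18455230 to 18461561) was at 13.3, 8.46 and 9.74 CPM in Xenobots, against 0.748, 0.379 and 0.558 CPM in embryos (log2 fold change 4.15 with SE 0.40, adjusted p = 1.08e-05 in limma). Its homeolog tnfrsf6b.S did not pass the filter but was also separated, with 13, 24 and 8 counts in Xenobots and 2, 0 and 2 in embryos. Of all tested genes 32.8% were separated upward. The costimulatory receptor tnfrsf9.L was at 7.22, 5.68 and 7.89 CPM in Xenobots and 0.842, 0.595 and 0.651 CPM in embryos (log2 fold change 3.23 with SE 0.31, adjusted p = 1.11e-05 in limma). The receptor of the ligand TWEAK, tnfrsf12a, rose in both copies, with tnfrsf12a.S at 11.0, 8.50 and 7.85 CPM in Xenobots against 1.75, 1.35 and 1.08 CPM in embryos (log2 fold change 2.70 with SE 0.27, adjusted p = 1.43e-05 in limma) and tnfrsf12a.L at a log2 fold change of 1.74.

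The receptor of tumour necrosis factor itself, tnfrsf1a, rose in both copies. The log2 fold change was 1.72 (SE 0.20) for tnfrsf1a.S, with 10.1, 11.1 and 12.2 CPM in Xenobots and 2.52, 4.44 and 3.49 CPM in embryos, and 0.97 (SE 0.18) for tnfrsf1a.L. The receptor of tnfsf10, tnfrsf10b.L, which the annotation places on chromosome 3S despite the ending of its symbol, averaged 7.01 ± 0.363 CPM in Xenobots and 2.93 ± 0.561 CPM in embryos (SD, n = 3 each), a log2 fold change of 1.29. The remaining copies that rose, tnfrsf14.L, tnfrsf19.L and both copies of tnfrsf21, had log2 fold changes of 1.09 to 1.16. For tnfrsf19.S the groups overlapped, with 21.0, 9.86 and 13.1 CPM in Xenobots and 10.5 to 10.8 CPM in embryos (limma adjusted p = 0.222), and without Xenobot pool 2 its log2 fold change was 0.65 (limma adjusted p = 0.0157). The soluble receptor tnfrsf11b, a decoy for tnfsf11 in mammals, was too low to test in either copy. It had at most 4 counts in any Xenobot pool and 5 to 13 in the embryo pools. Both copies were thus lower in Xenobots with no overlap, as were 38.9% of all tested genes. The ligand tnfsf11.L had overlapping groups (log2 fold change -0.15, limma adjusted p = 0.763).

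Receptor chains of the type I and II cytokine families moved both ways. The shared chain il10rb, which in mammals serves interleukin-10, interleukin-22 and related ligands in epithelia, rose in both copies. For il10rb.L (chromosome 2L, 14134046 to 14147488) the level was 27.1, 19.0 and 22.8 CPM in Xenobots, against 4.91, 3.35 and 4.93 CPM in embryos (log2 fold change 2.36 with SE 0.21, adjusted p = 6.23e-06 in limma). The copy il10rb.S rose by 2.11 on the log2 scale (adjusted p = 1.5e-05 in limma), or by 2.00 when Xenobot pool 3 was left out. The partner chain il10ra.L did not pass the test, at 1.01 to 1.22 CPM in Xenobots and 1.24 to 2.34 CPM in embryos (log2 fold change -0.58, limma adjusted p = 0.159). Its homeolog il10ra.S, which did not pass the filter, had 6, 19 and 8 counts in Xenobots and 3, 3 and 4 in embryos. It was higher in every Xenobot pool, as were 32.8% of all tested genes. The decoy il13ra2.S, which binds interleukin-13 in mammals, averaged 1.36 ± 0.273 CPM in Xenobots and 0.414 ± 0.177 CPM in embryos (log2 fold change 1.76, limma adjusted p = 0.00411). This copy passed the filter through Xenobot libraries only and had to differ. Its homeolog il13ra2.L did not pass the filter, with 0, 5 and 5 counts in Xenobots and 2, 1 and 2 in embryos.

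In the leukemia inhibitory factor system the ligand rose while its own receptor chain fell. Both copies of lif passed the filter through Xenobot libraries only and had to differ, while both copies of lifr were free to overlap. For lifr.L (chromosome 1L, 214521713 to 214591342) the level was 4.33, 3.99 and 2.60 CPM in Xenobots, against 18.9, 20.3 and 17.8 CPM in embryos (log2 fold change -2.36 with SE 0.19, adjusted p = 3.98e-06 in limma). For lifr.S it was 5.36, 4.98 and 4.28 CPM in Xenobots, against 11.3, 11.8 and 11.6 CPM in embryos (log2 fold change -1.23 with SE 0.15, adjusted p = 4.36e-05 in limma). The shared chain gp130 had small log2 fold changes. The log2 fold change of il6st.L was 0.39 (SE 0.10, limma adjusted p = 0.0065), with 48.5 to 56.8 CPM in Xenobots and 39.2 to 41.3 CPM in embryos, and that of il6st.S was 0.11 (SE 0.12, limma adjusted p = 0.407), with overlapping groups. With scaling to total counts, the log2 fold changes were 0.24 (limma adjusted p = 0.249) and -0.03. The interleukin-11 receptor il11ra.L fell by 1.41 (SE 0.13), with 9.35 to 11.2 CPM in Xenobots and 24.5 to 28.3 CPM in embryos, and osmr.S, the oncostatin M receptor, showed overlapping groups (limma adjusted p = 0.315). The interleukin-6 receptor did not pass the filter in either copy, with il6r.L at 0 counts in every Xenobot pool and 4 to 7 in embryos, and il6r.S at 6, 1 and 1 counts in Xenobots and 7, 7 and 18 in embryos.

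**Figure D4:**
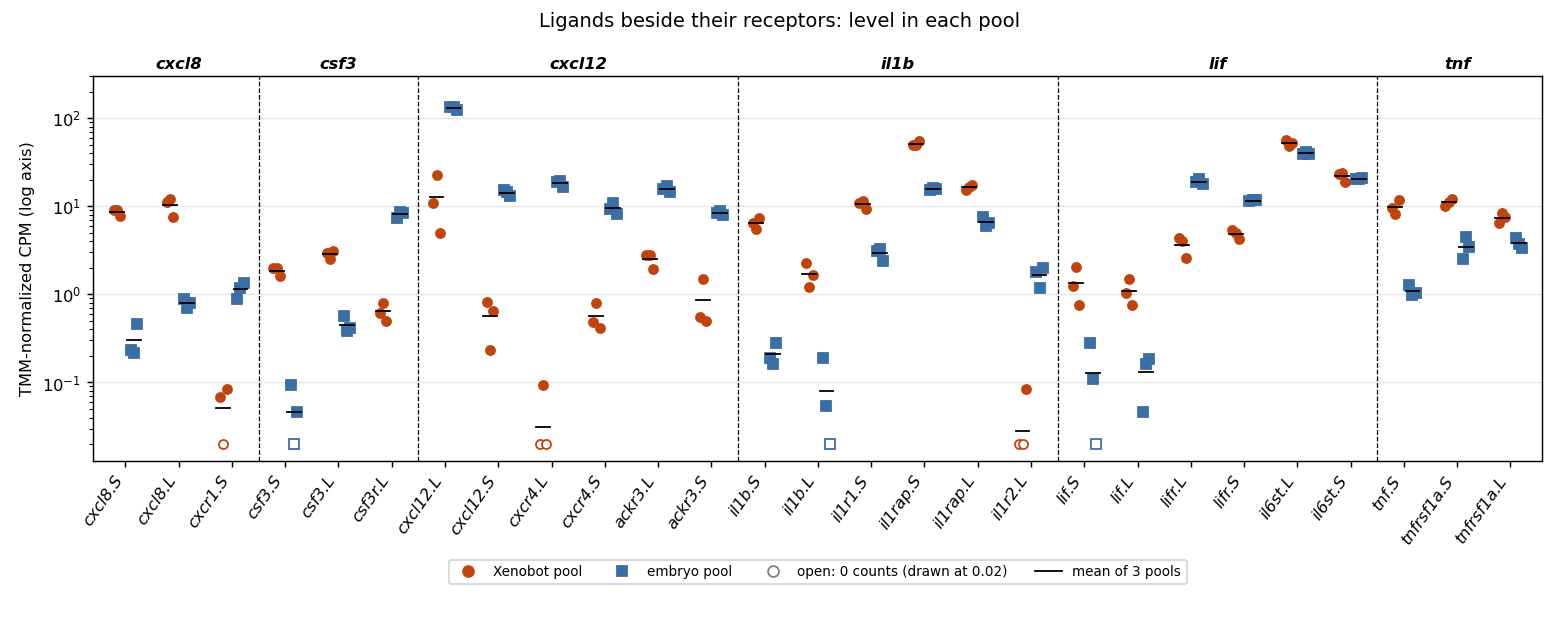
Level (TMM-normalized CPM, log axis) of 6 ligands and their receptors in each Xenobot pool (circles) and embryo pool (squares); bars are means of 3 pools and open symbols mark 0 counts. The ligands cxcl8, csf3 and lif are higher and cxcr1, csf3r and lifr lower in Xenobots. In Xenobots cxcl12 and its receptors are lower, and il1b, tnf and their signalling receptors are higher. The copies cxcl8.S, csf3.S and both of il1b and lif passed the filter through Xenobot libraries only and had to differ. So did cxcr1.S, cxcr4.L and il1r2.L, which passed through embryo libraries only. Levels of different genes are not corrected for transcript length.

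Both copies of a gene could be tested for 21 of the symbols. The log2 fold changes of the copies had the same sign for 18 of them, against 79.2% of all 6667 tested pairs. Both copies passed the test in the same direction for 13, against 49.7% of all pairs, and in opposite directions for 0, against 3.88%. In a separate test of the L over S ratio between the groups (limma-trend, over the same pairs), 11 of the 21 differed at an adjusted p under 0.05, where 42.6% of all pairs did. The differences in log2 fold change (L minus S) were -4.61 (SE 0.45, adjusted p = 0.000131) for cxcr4, 2.75 (SE 0.30, adjusted p = 0.000226) for cxcl2, -2.30 (SE 0.54, adjusted p = 0.00946) for csf3 and -1.15 (SE 0.37, adjusted p = 0.0377) for cxcl8. The CPM of cxcr4.S exceeded that of cxcr4.L in every Xenobot pool, and that of cxcr4.L exceeded that of cxcr4.S in every embryo pool, without correction for transcript length. RSEM assigns reads that match both copies by estimation, which makes the split between L and S less certain than their sum.

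The members that are neither ligands nor receptors were led by tnfaip3.S, which encodes the ubiquitin-editing enzyme A20, an inhibitor of NF-kB that NF-kB itself induces. It was at 17.9, 13.2 and 18.4 CPM in Xenobots, against 1.96, 2.22 and 2.65 CPM in embryos (log2 fold change 2.81 with SE 0.24, adjusted p = 5.26e-06 in limma). The gene tnfaip8l3.L, at 0.0839 to 0.137 CPM in Xenobots against 0.698 to 0.974 CPM in embryos, fell by 2.69 on the log2 scale. This copy passed the filter through embryo libraries only and had to differ, and its Xenobot values rest on 5 counts in all. Its homeolog tnfaip8l3.S, which did not pass the filter, had 2, 0 and 0 counts in Xenobots and 7, 9 and 8 in embryos. The hyaluronan-binding protein gene tnfaip6 showed overlapping groups in both copies, and in Xenobots both were highest in pool 2 (5.31 CPM for tnfaip6.L and 4.18 CPM for tnfaip6.S) and lowest in pool 3 (1.34 and 0.504 CPM). The log2 fold change of tnfaip6.L was -1.09 without Xenobot pool 2 (limma adjusted p = 0.0146), and that of tnfaip6.S was 1.45 without Xenobot pool 3 (limma adjusted p = 0.0276).

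Signalling components downstream of these receptors were counted in fixed lists. Of 52 tested NF-kB pathway copies, 40 rose and 0 fell, with a median log2 fold change of 1.02, and 3 passed the fold threshold: the subunit rel.L (2.15) and the inhibitors nfkbia.S (2.19) and tnip1.L (2.24). Of 39 tested JAK-STAT copies, 17 rose and 4 fell (median 0.33), and both copies of the feedback inhibitor socs3 passed the fold threshold, with log2 fold changes of 3.29 for socs3.S and 2.68 for socs3.L. Of 19 tested copies of chemokine receptor signalling genes, 4 rose and 11 fell (median -1.24), and 6 passed the downward fold threshold, among them the leukocyte genes dock2.L and rac2.L at -2.54 and -5.61. For comparison, 29.6% of all tested genes rose and 36.2% fell, and 5.75% were higher and 20.5% lower past both thresholds. The shares of NF-kB and JAK-STAT copies past the upward fold threshold are thus near the background.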

How the data were processed

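After rRNA depletion, RNA from 3 Xenobot pools and 3 embryo pools was made into stranded libraries. The authors ran fastp, STAR (NCBI genome, version 10.1) and RSEM, and deposited one estimated count per gene and library, which need not be whole. The authors also deposited log2 CPM values adjusted for surrogate variables, used here only as an alternative. Groups came from the sample titles, and 0 columns of other samples were present.

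Genes with CPM above 0.6 in at least 3 libraries were normalized with TMM factors (edgeR 4.0.16), transformed with voom and tested two-sided in limma 3.58.1 (R 4.3.3). The study's methods name these tools but not the model terms, and the model used here held group alone. P-values were adjusted over all 26752 tested genes. The labels do not say whether pools came from separate clutches, so p-values measure only the spread between these pools. Where a group had 1 to 3 counts in all, the ratio of summed counts is given with an exact (Clopper-Pearson) interval; where it had 0, the fold is a bound against 3 counts. Rounded counts entered those intervals, the quasi-likelihood test of edgeR and DESeq2 1.42.0. sva 3.50.0 gave the surrogate variable.

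Roles and families were set by hand from symbols. The text gives every member past both thresholds, its homeolog and members of fixed ligand and receptor pairs. Of those pairs, tnfsf11.S and tnfsf13b.L, which did not pass the filter, are not described. Members, lists and rules were chosen with earlier results of these data known. The L over S ratio test (prior count 0.5), the deposited adjusted values and removal of rRNA genes were added after seeing the data. Positions are from the NCBI gene table of the same assembly, which held all 117 members. Sequences and transcript lengths were not used here. The limma and ratio tests were tested on simulated data.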

Additional observations from a re-analysis of the deposited data

How the results depend on the processing

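The counts of members past both thresholds (18 higher, 15 lower) were the same with edgeR's quasi-likelihood test, DESeq2, RLE scaling and the replicate block, which gave 18 and 15 each. Of the 33 members, 28 kept direction and thresholds in every alternative that tested them singly, other than limma treat. The exceptions were ccl4.L, csf3.L, cxcl14.L, il10rb.S and tnfsf10.S, with log2 fold changes of 2.04 to 2.58 in the main test. The copy csf3.L was lost only in the adjusted values, where its log2 fold change was 1.90. With limma treat, which tests against the fold threshold itself, only 21 of the 33 passed. Of these, 9 were higher, of which 6 were ligands and 2 receptors, and 12 were lower. Those that did not pass include csf3.L, cxcl2.S, lifr.L, tnfrsf12a.S and both copies of lif and il10rb. In all, 662 genes were higher with limma treat, against 1538. Its calls rest on adjusted p alone, since the fold threshold is already part of that test. Without a filter 17 receptors were lower, 30 members fell at adjusted p alone, and the medians were 0.42 for ligands and -0.55 for receptors. With a mean CPM above 1, 6 receptors were lower and the medians were 1.57 and 1.00. With homeologs summed, 7 ligand symbols were higher and 2 lower, and the medians were 1.45 and -0.061. The ligand median was 1.56 in the adjusted values, and the receptor median 0.23 with scaling to total counts and 0.23 without rRNA genes. The sign of the receptor median thus depends on the filter and on the counting of copies. Scaling to total counts moved the median of all genes to -0.21.

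Leaving out 1 pool at a time gave 15 to 18 members higher and 15 to 16 lower, with medians of 1.76 to 2.06 for ligands and 0.33 to 0.44 for receptors. Changes of sign were seen only in members that did not pass the main test. The log2 fold change of cxcl2.L was -0.028 with upper-quartile scaling, -0.027 with total counts, -0.87 with homeologs summed (limma adjusted p = 0.00386) and -0.13 to 0.26 without single pools. That of ccr9.L was 0.016 with 1 surrogate variable, 0.42 in the adjusted values and -0.33 to 0.068 without single pools. It was -0.032 for il6st.S with total counts. With homeologs summed it was 0.24 for tnfaip8.S and -0.077 for tnfaip6.S, and without single pools -0.16 to 0.0069 and -0.097 to 1.45. It was -0.38 to 0.23 for tnfsf11.L without single pools, and 0.15 for ackr4.L and 0.76 for tnfaip6.L in the adjusted values (adjusted p = 0.745 and 0.00288 in limma). Same-numbered pools correlated at 0.0568, 0.0531 and 0.0105 in their deviations from the group means, so the numbers were not taken to pair them. Low counts limit the 47 members that the filter left out. Without it 111 members were tested, of which 20 were higher and 25 lower.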
